A study of Homo sapiens and Mus musculus with 6 samples.

Results

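Olfactory and vomeronasal receptor genes were followed as the baits of Promoter CHi-C, a method that enriches a Hi-C library for ligation products of restriction fragments that carry gene promoters. In mouse embryonic stem cells (mESCs), the baits were those listed with a symbol that starts with Olfr, Vmn1r or Vmn2r, which gave 476 of the 16265 baits with a call and 1324 of the 101841 calls. In the human lymphoblastoid cell line GM12878, the baits were those with a symbol made of OR, digits, letters and digits, which gave 203 of 15389 baits and 838 of 92929 calls. All other baits of the same list were the comparison. A call is a pair of HindIII fragments, bait and other end, with a CHiCAGO score of at least 5, where the score rises with the excess of read pairs over a distance-dependent background.

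The mESCs were of the J1 line (strain 129S4/SvJae), expanded on irradiated embryonic fibroblasts that were removed at harvest, and were assayed in 2 replicates. GM12878 cells were grown in suspension and assayed in 3 replicates, and 1 Hi-C library of mESCs was available for comparison. Neither group carried a treatment. The authors pooled the replicates of each cell type into a single set of calls, which leaves neither an error between replicates nor a test between conditions. The intervals below are 95% intervals (Wilson for shares, order statistics for medians), and they cover counting error only, since neighbouring fragments and calls of the same cluster are not independent.

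Olfactory receptors are G protein-coupled receptors that bind odorants in the sensory neurons of the nose, and each such neuron expresses a single allele of a single receptor gene. The genes are a very large family that lies in clusters along many chromosomes, with class I genes gathered in a single cluster and class II genes spread over the others. Vomeronasal receptors of the V1R (Vmn1r) and V2R (Vmn2r) families detect pheromones and related cues in the vomeronasal organ of the mouse. In stem cells and lymphoblastoid cells these genes are not known to serve in the sense of smell, and the calls carry no measure of expression.

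The promoter sequences of baits on which the values below turn are shown first, from 250 bases before to 50 bases after the annotated start, with matches on either strand to the core promoter element TATAAA, to the homeodomain-type cores TAATTA and TAATGA, or to CCCNNGGG (a core of the Olf1/EBF site) in capitals. Olfr1350, the mouse receptor bait with the most calls, lay on the plus strand of mm9 at chr7:6522454-6522753 for this window. Olfr583, which called receptor fragments only, lay on the plus strand of mm9 at chr7:110199564-110199863, a window whose first bases fall outside its bait fragment. For both mouse genes the annotated start is the start of the coding sequence, in a single-exon gene model. OR1G1, the human receptor bait with the second most calls, is given from the RefSeq promoters of GRCh38.p14 (minus strand), and the same 300 bases matched hg19 exactly at chr17:3030796-3031095, inside the bait fragment. Its gene model also has a single exon, and the bases after its annotated start open with ATG, so this window may not be at the true start either.
Olfr1350: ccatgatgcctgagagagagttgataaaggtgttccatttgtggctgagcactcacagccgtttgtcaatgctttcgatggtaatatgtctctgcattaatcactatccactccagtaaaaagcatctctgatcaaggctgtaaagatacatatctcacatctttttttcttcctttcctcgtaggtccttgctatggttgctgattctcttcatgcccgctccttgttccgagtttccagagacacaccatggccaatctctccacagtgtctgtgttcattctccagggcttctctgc
Olfr583: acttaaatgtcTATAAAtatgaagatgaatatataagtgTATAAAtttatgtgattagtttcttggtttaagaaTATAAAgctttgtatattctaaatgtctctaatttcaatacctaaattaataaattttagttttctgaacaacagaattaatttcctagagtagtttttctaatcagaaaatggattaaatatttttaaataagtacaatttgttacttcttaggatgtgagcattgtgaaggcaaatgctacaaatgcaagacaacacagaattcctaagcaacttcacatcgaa
OR1G1: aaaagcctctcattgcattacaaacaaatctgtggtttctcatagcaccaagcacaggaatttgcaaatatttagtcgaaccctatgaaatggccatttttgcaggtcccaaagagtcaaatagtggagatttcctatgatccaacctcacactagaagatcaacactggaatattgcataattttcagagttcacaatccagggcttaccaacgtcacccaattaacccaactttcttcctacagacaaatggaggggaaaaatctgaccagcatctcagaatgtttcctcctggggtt
Olfr583 held 3 matches to TATAAA, whereas Olfr1350 and OR1G1 held no match to any of the 4 motifs in this window. Each of the Olfr583 matches began in the bases outside its bait fragment, and only the last of them reached the edge of the fragment.

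Across genes, receptor promoters were poor in G and C and rich in the motifs made mostly of A and T. The median GC share of the 300-base window was 37% over the 475 protein-coding mouse receptor genes whose symbol is that of a bait with a call, against 55% over all 22362 mouse protein-coding genes. TATAAA was found in 34.9% of these receptor promoters and in 13.4% of all promoters, TAATTA in 16.8% and 4.83%, and TAATGA in 29.5% and 9.06%. CCCNNGGG went the other way, with 2.53% of the receptor promoters against 15.1% of all. In human, 170 of the 206 receptor symbols on baits with a call matched the RefSeq promoters, and the 177 promoters of these genes held TATAAA in 34.5%, TAATTA in 19.8%, TAATGA in 26.6% and CCCNNGGG in 5.08%, against 11.5%, 4.84%, 8.76% and 19.1% of all 35116 promoters. These are letter matches, TAATTA and CCCNNGGG read the same on both strands, and matches of different motifs can share bases. The annotated start was the coding start for 52% of the mouse receptor genes with a call and for 11.9% of all mouse genes, so many of the mouse windows may not be at the true start. In the human annotation of hg19 it was the coding start for 40.5% of 205 receptor genes with a call and for 3.51% of all genes. The same limit may hold for the human windows, although the starts of the RefSeq promoters were not checked in this way.

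Sequence shared between the fragments of a call is shown next, because the next 2 scores below the highest of the mouse receptor baits joined fragments of receptor paralogues. In each pair, the stretch is the first 100 bases of the longest run without a gap in the best alignment of the 2 fragments, and capitals mark the positions at which they differ. The Vmn2r114 stretch (mm9, chr17:23444808-23444907, plus strand, intron of Vmn2r114) was aligned with an unbaited fragment (chr17:23612120-23612219, plus strand) in an intron of Vmn2r117.
Vmn2r114: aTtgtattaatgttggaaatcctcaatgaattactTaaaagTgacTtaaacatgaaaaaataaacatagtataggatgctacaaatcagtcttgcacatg
Vmn2r117: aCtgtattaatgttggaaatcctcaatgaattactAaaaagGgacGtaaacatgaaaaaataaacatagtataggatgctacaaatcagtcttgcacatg
The Olfr625-ps1 stretch (mm9, chr7:110831184-110831283, plus strand, exon) was aligned with an unbaited fragment (chr7:110732488-110732587, plus strand) in an exon of Olfr617.
Olfr625-ps1: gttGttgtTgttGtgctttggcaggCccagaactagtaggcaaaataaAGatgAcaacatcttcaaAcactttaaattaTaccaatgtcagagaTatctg
Olfr617: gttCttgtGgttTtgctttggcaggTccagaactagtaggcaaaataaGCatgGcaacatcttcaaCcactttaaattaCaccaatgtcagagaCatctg
The last stretch is from the pair of receptor baits with the highest score, Olfr206 (mm9, chr16:59344819-59344918, plus strand, exon) and Olfr209 (chr16:59361336-59361435, plus strand, exon).
Olfr206: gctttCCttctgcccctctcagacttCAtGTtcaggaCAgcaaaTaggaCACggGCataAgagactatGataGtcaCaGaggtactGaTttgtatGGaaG
Olfr209: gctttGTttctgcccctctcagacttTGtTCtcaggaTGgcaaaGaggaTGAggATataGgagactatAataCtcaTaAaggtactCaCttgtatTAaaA
The stretches differed at 4 positions for Vmn2r114 with Vmn2r117, at 10 for Olfr625-ps1 with Olfr617 and at 24 for Olfr206 with Olfr209. Over the whole alignment, Vmn2r114 and its partner shared 2433 bp at 92.5% identity, Olfr625-ps1 and its partner 1591 bp at 85.2%, and Olfr206 and Olfr209 746 bp at 83.6%. The part of this shared sequence in the read counts of these calls was not tested.

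Receptor promoters had few calls in mESCs. The median was 2 calls per receptor bait (interval 2 to 2) against 3 (3 to 4) per other bait, and 193 of 476 receptor baits (40.5%, 36.2 to 45) had exactly 1 call, where the background among other baits was 22.8%. Baits with 11 to 20 calls were 10 of the 476 (2.1%) against 11.5% of other baits, 1 receptor bait (0.21%) had more than 20 against 5.5%, and the highest number was 25 against 131. Among calls with a score of at least 10, both medians were 1 call, and 72.3% of receptor baits had 1 call against 50.1% of other baits. The neighbouring genes did not share the low number, since the 914 other baits within 500 kb of a receptor cluster had a median of 5 calls (4 to 5), and 16.2% of them had exactly 1. In GM12878 the difference was much smaller in the median and in the share with 1 call. The median was 3 calls per receptor bait (2 to 3) and 3 (3 to 3) per other bait, and 50 of 203 receptor baits (24.6%, 19.2 to 31) had exactly 1 call against a background of 25.1%. Baits with many calls were again fewer among receptors: 6.9% (4.15 to 11.2) had 11 to 20 calls against 9.75%, and 0.985% (0.271 to 3.52) had more than 20 against 5.63%. The highest number was 26 against 113. The 473 other baits near human receptor clusters had a median of 4 calls (4 to 5).

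**Figure D1:**
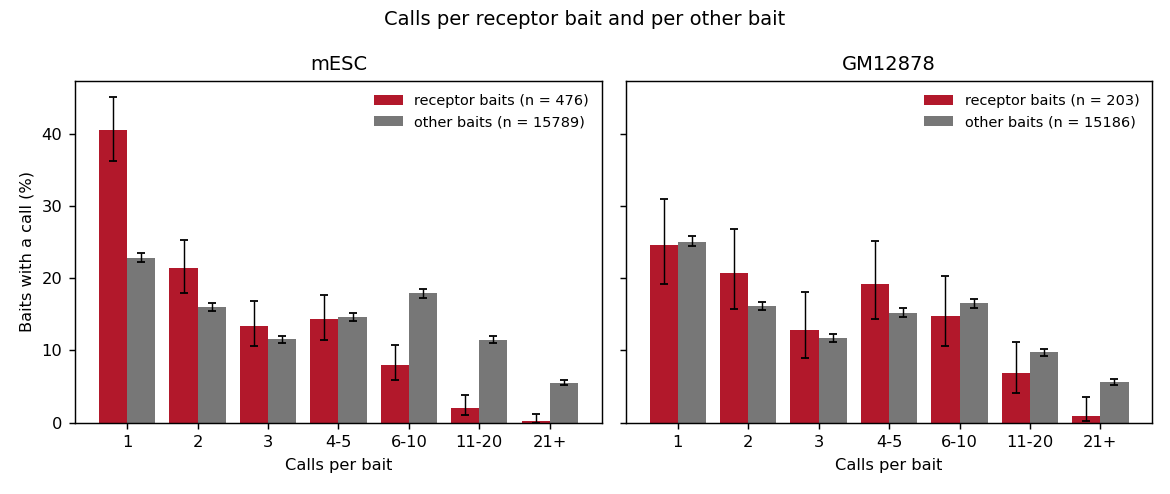
Share of baits (y axis, % of baits with a call) by number of calls per bait (x axis) for receptor baits and other baits in mESCs and GM12878, with Wilson 95% intervals as bars. In mESCs the receptor baits are shifted to 1 call (40.5% against 22.8%), while in GM12878 the shares at 1 call are 24.6% and 25.1%.

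The 3 mouse families differed in how many baits had calls at all. Olfr genes gave 438 of the 476 baits and 1255 of the 1324 calls, Vmn1r genes 30 baits and 59 calls, and Vmn2r genes 8 baits and 10 calls. Of the annotated protein-coding genes, 446 of 1113 Olfr genes (40.1%, 37.2 to 43), 32 of 203 Vmn1r genes (15.8%, 11.4 to 21.4) and 8 of 125 Vmn2r genes (6.4%, 3.28 to 12.1) had a start on a fragment listed as bait, whatever symbol the list gives it, compared with 71.3% of 20926 other protein-coding genes. In human, 164 of 399 protein-coding OR genes (41.1%, 36.4 to 46) had one, compared with 67% of 19764 other genes. These shares combine which promoters were captured with which had a call, since the list of captured baits was not used here, and the 2 cannot be told apart. A further 101 mouse and 52 human receptor fragments were listed only as the other end of a call, which brought the receptor fragments to 577 and 255. The start of the gene named was inside the bait fragment for 476 of 476 mouse receptor baits, and for 130 of the 202 human baits found in the annotation used here.

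Receptor baits met other baited fragments more often than other baits did. In mESCs, 62.3% of receptor calls (59.7 to 64.9) were bait-to-bait, meaning that the other end was itself a baited fragment, against a background of 36% for other baits. In GM12878 the share was 53.3% (50 to 56.7) against a background of 29.2%, and at 10 reads or more it was 45.5% against 26.8%. Other baits close to the clusters were in between, with 41.2% in mESCs and 37.2% in GM12878. The partners were largely other receptors: 603 mESC calls (45.5%, 42.9 to 48.2) and 304 GM12878 calls (36.3%, 33.1 to 39.6) ended on another receptor fragment. Calls of neighbouring other baits ended on a receptor fragment in 2.37% (2.05 to 2.74) and 2.72% (2.24 to 3.3) of cases.

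The remaining partners were divided between the cluster and its surroundings. In mESCs, 79 calls (5.97%) met another baited promoter inside the span of the cluster and 143 (10.8%) one outside it, while 244 (18.4%) met an unbaited fragment inside the span and 255 (19.3%) one outside. In GM12878 the counts were 70 (8.35%), 73 (8.71%), 246 (29.4%) and 145 (17.3%). Unbaited does not mean free of receptor sequence: 48 of the 499 unbaited other ends in mESCs (9.62%) and 67 of 391 in GM12878 (17.1%) overlapped an annotated receptor gene, as did those of Vmn2r114 and Olfr625-ps1 above.

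**Figure D2:**
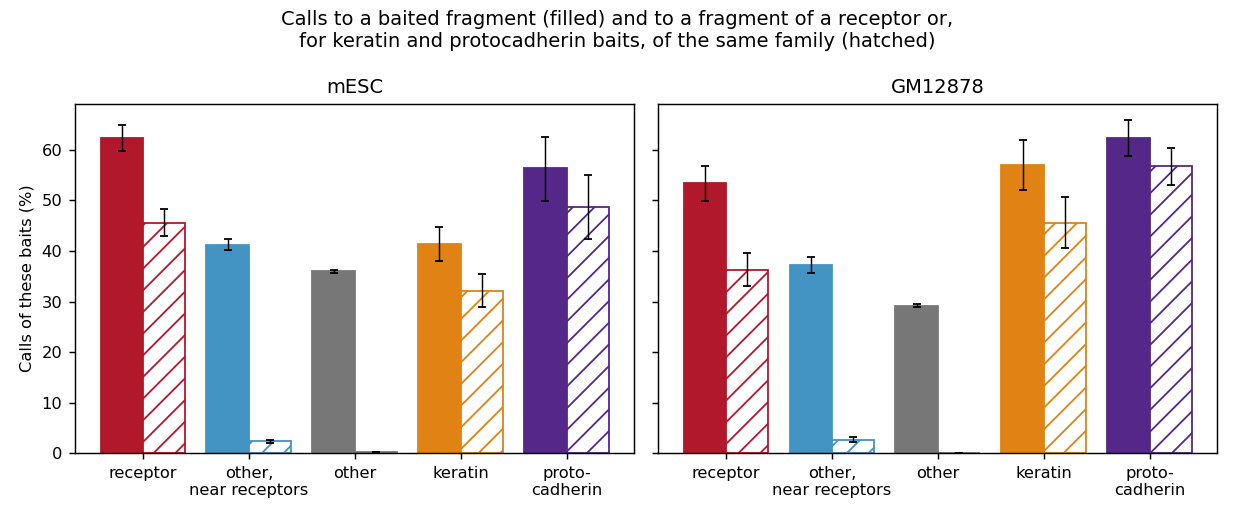
Share of calls (y axis, %) that ended on any baited fragment (filled bars) and on a receptor fragment (hatched bars) for receptor baits, other baits within 500 kb of a receptor cluster and all other baits, with hatched bars showing the bait's own family for keratin and protocadherin baits; error bars are Wilson 95% intervals. Receptor baits reach 62.3% and 45.5% in mESCs and 53.3% and 36.3% in GM12878, while neighbouring other baits end on receptors in under 3% of calls.

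High shares of own-family partners were not particular to receptors. The other clustered families read for comparison were keratins with keratin-associated proteins, structural proteins of hair and epithelium, and the clustered protocadherins, adhesion proteins of neurons that are also expressed in a cell-specific choice. Their own-family shares were 32.1% and 48.7% of calls in mESCs, and 45.6% and 56.8% in GM12878. They had more calls per bait in mESCs, however, with medians of 9.5 (8 to 12) over 72 keratin baits and 12 (9 to 14) over 20 protocadherin baits. In GM12878 the medians were 3 (2 to 4) over 95 keratin baits and 17.5 (15 to 20) over 36 protocadherin baits.

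Because receptor genes are densely packed, the share of receptor partners was also set against how many receptor pairs were possible. Only fragments listed in a call count as possible, so all these shares depend on which fragments had a call. Of protein-coding genes, 48.5% of Olfr, 18.7% of Vmn1r and 8.8% of Vmn2r were listed, against 74.8% of other mouse genes. In human, 53.1% of OR genes were listed against 71.6% of others. The effect of this selection on the shares was not tested. Of all pairs of listed receptor fragments within 50 kb in mESCs, 122 of 512 (23.8%, 20.3 to 27.7) had a call, compared with 35.6% (34.8 to 36.3) of pairs of other baited fragments. Pairs of a receptor and another baited fragment had a call in 19.3% (14.6 to 25). Receptor pairs stayed below other pairs at 100 to 200 kb, with 14.4% (12.2 to 16.9) against 24.9% (24.4 to 25.4). At 200 to 500 kb the values were 9.47% (8.2 to 10.9) and 11.2% (10.9 to 11.4), and at 500 kb to 1 Mb the order turned, with 65 of 1948 receptor pairs (3.34%, 2.63 to 4.23) against 1.96% (1.87 to 2.04). The other clustered families were far higher in this class, with 67 of 324 keratin pairs (20.7%, 16.6 to 25.4) and 7 of 17 protocadherin pairs (41.2%, 21.6 to 64). At shorter distances keratin pairs were lower than receptor pairs, with 15.2% (10 to 22.2) within 50 kb and 8.78% (5.63 to 13.5) at 100 to 200 kb. Protocadherin pairs were higher, with 31.8% (20 to 46.6) and 61.5% (48 to 73.5). Receptor pairs also lay above pairs of a receptor with another promoter beyond 200 kb, with 9.47% against 5.06% (4.33 to 5.9) at 200 to 500 kb and 3.34% against 0.669% (0.49 to 0.913) at 500 kb to 1 Mb. Of the 5 distance classes, the longest was the one in which receptor pairs had a higher share of calls than all other pairs, and within 50 kb the intervals of receptor pairs and of receptors with other promoters overlapped.

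In GM12878 receptor pairs were called in 26.5% (21 to 32.9) of 211 possible pairs within 50 kb, 19% (15.4 to 23.2) at 100 to 200 kb, 14% (11.8 to 16.7) at 200 to 500 kb and 2.54% (1.59 to 4.03) at 500 kb to 1 Mb. Other pairs were at 30.7%, 25.7%, 13.1% and 2.16% in the same classes. The human intervals therefore overlapped those of other pairs in the nearest class and in those over 200 kb. Human keratin pairs were called in 16.7% (11.9 to 22.8) within 50 kb and 10.9% (7.19 to 16.3) at 500 kb to 1 Mb. Human protocadherin pairs were at 59.4% (49.7 to 68.5) and 35.4% (26.6 to 45.4). Human symbols also name a family by their first number. At 100 to 200 kb, receptor pairs of the same symbol family were called in 45 of 182 possible pairs (24.7%, 19 to 31.5) and pairs of different families in 28 of 203 (13.8%, 9.72 to 19.2). At 200 to 500 kb the values were 15.5% (11.8 to 20.2) and 13.2% (10.4 to 16.5), and within 50 kb 26.3% and 27.5%, so no steady difference by family appeared.

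**Figure D3:**
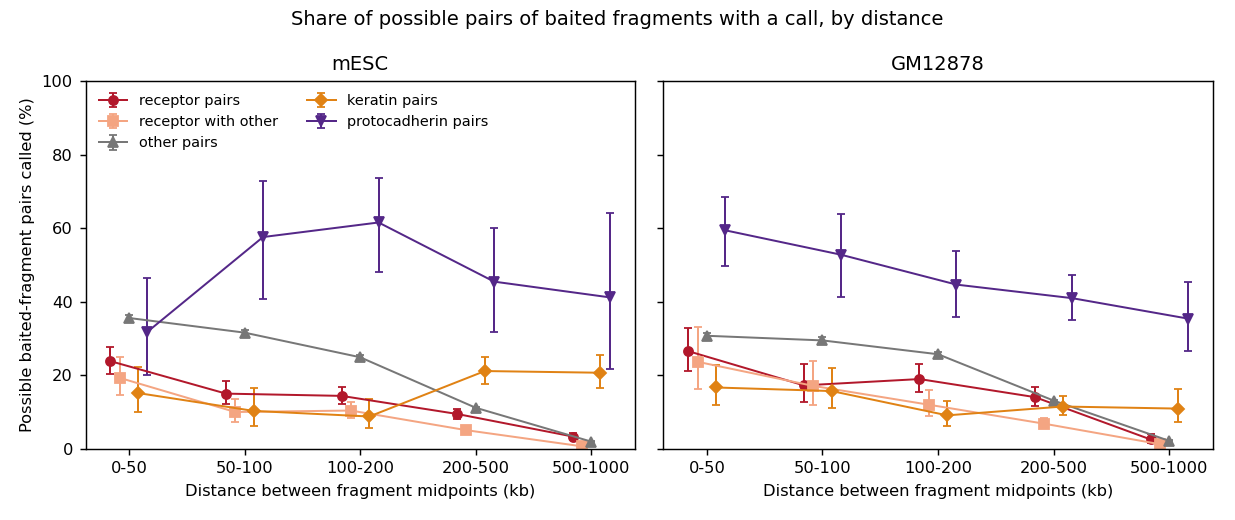
Share of possible pairs of baited fragments that had a call (y axis, %) by distance between midpoints (x axis, kb) for receptor pairs, pairs of a receptor with another promoter, pairs of other promoters, keratin pairs and protocadherin pairs, with Wilson 95% intervals. Possible pairs are those of fragments listed in a call. Receptor pairs fall from 23.8% to 3.34% in mESCs and from 26.5% to 2.54% in GM12878, and lie below other pairs at 100 to 200 kb in both.

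Every receptor pair with a call stayed within its cluster, where clusters were runs of receptor fragments with gaps of at most 1 Mb. This held for 560 of 560 fragment pairs in mESCs and 288 of 288 in GM12878, and no pair joined receptors of different chromosomes. A pair closer than the gap lies in the same cluster by construction, so the count speaks mainly to the absence of calls between distant clusters. Receptor baits had only 10 *trans* calls of any kind in mESCs and 2 in GM12878, so the absence of pairs between chromosomes says little. With gaps of at most 500 kb the shares were 100% and 99.3%. The mESC pairs were 543 of Olfr with Olfr, 10 of Vmn1r with Vmn1r, 5 of Vmn1r with Vmn2r, 1 of Vmn2r with Vmn2r and 1 of Olfr with Vmn2r. The Vmn1r with Vmn2r pairs included Vmn2r109, whose only calls were to Vmn1r224 (145 kb, 9 reads, score 9.84) and Vmn1r228 (215 kb, 5 reads, score 5.48). Vmn1r229 called Vmn1r231 (75.5 kb, score 8.21), Vmn1r224 (398 kb, score 9.69) and Vmn2r108 (334 kb, score 9.19), beside 1 other baited gene.

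Calls listed from both ends were rarer among receptors. Of 389 mESC receptor pairs in which both fragments were baits with a call, 43 (11.1%, 8.31 to 14.6) were listed from both ends, compared with 27.9% (27.4 to 28.4) of other pairs. In GM12878 the counts were 16 of 211 (7.58%, 4.72 to 12) and 20.4% (19.9 to 20.9). Receptor calls rested on fewer reads, with a median listed read count of 8 (8 to 8) in mESCs against 13 for other baits, and 12 (11 to 12) in GM12878 against 16. Their median scores were 6.25 (6.15 to 6.34) and 6.52 (6.38 to 6.68), against 6.63 in both lists. The bait fragments of receptors were also shorter and poorer in GC, with medians of 5.02 kb and 38.5% in mESCs against 5.77 kb and 47.8%, and of 5.64 kb and 38.6% in GM12878 against 6.96 kb and 47.5%. Whether length or base composition bears on the number of calls was not tested.

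The median *cis*-chromosomal distance between midpoints was 191 kb (174 to 209) in mESCs and 234 kb (219 to 250) in GM12878, against 139 kb (137 to 140) and 173 kb (172 to 175) for other baits. The longer distance in mESCs was not seen among stronger calls: at a score of at least 10 the medians were 108 kb for receptor and 109.5 kb for other baits, and at 10 reads or more they were 59.5 and 90.2 kb. In GM12878 the receptor median stayed above that of other baits in both settings, at 189 against 148 kb and 177 against 147 kb. The class from 200 to 500 kb held 35.1% of receptor *cis* calls in mESCs against 27.1%, and 45% in GM12878 against 35.5%. Over 1 Mb, 29 of 1314 mESC receptor *cis* calls (2.21%, 1.54 to 3.15) were found against a background of 3.41%, and 18 of 836 in GM12878 (2.15%, 1.37 to 3.38) against a background of 1.64%, an order that turned at 10 reads or more (0.18% against 0.538%). Other baits within 500 kb of a receptor cluster had higher shares over 1 Mb than receptors in both, with 5.68% (5.18 to 6.22) in mESCs and 8.4% (7.54 to 9.35) in GM12878. No receptor call spanned over 10 Mb in either cell type. A count of 0 of 1314 allows a share of up to 0.228%, compared with 0.694% of other mESC calls, and 0 of 836 allows up to 0.359%, compared with 0.11% in GM12878. These limits cover counting error only and take calls as independent, which calls of the same cluster are not, and in GM12878 a lower share was not detectable at this depth.

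The longest mouse calls were between receptors or reached a shared distal fragment. Olfr638 called Olfr553 at 1387 kb (5 reads, score 8.27), and Olfr1102 called Olfr1012 at 1249 kb (4 reads, score 6.97). Vmn1r191 called an unbaited fragment 1226 kb away (6 reads, score 9.32). In GM12878, OR4C15 called an unbaited fragment at 4962 kb (4 reads, score 5.08), and OR4C16 called 2 at 4067 and 4040 kb (5 reads each, scores 6 and 5.81). These human calls started on the long arm of chromosome 11 near the centromere and ended on unbaited fragments at chr11:50357558-50361327, chr11:51263329-51265534 and chr11:51290525-51292483 of hg19, so the distances include the centromeric region.

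*Trans*-chromosomal receptor calls were rare, at shares near those of other baits, and none joined receptors. With 12 calls in all, the absence of receptor partners says little, and no expected number was computed. There were 10 in mESCs (0.755%, 0.411 to 1.38, background 0.566%) and 2 in GM12878 (0.239%, 0.0655 to 0.866, background 0.311%). The mESC calls with the highest scores were from Olfr622 to an unbaited fragment of chromosome 12 (6 reads, score 24.02), from Olfr850 to chromosome 1 (4 reads, score 23.04) and from Olfr149 to an intron of Bcas3 on chromosome 11 (4 reads, score 20.14). The only baited partner was Psg25, a pregnancy-specific glycoprotein gene on chromosome 7, called from Olfr1170 with 3 reads and a score of 6.22. The human calls went from OR4K2 (4 reads, score 10.38) and OR4K5 (3 reads, score 7.88) on chromosome 14 to pseudogene-bearing fragments of chromosome 22, NF1P6 and NBEAP3. All 12 rested on 6 reads or fewer.

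Named baits differed in how many of their calls met their own cluster. Olfr1350 (chr7:6519814-6523604 of mm9) had 25 calls, of which 5 met receptors, 4 other baited genes and 16 unbaited fragments, at a median of 135 kb. Its receptor partners were Olfr1348 (67 kb, 16 reads), Olfr5 (13 reads), Olfr1346 (15 reads), Olfr1336 (16 reads) and Olfr1344 (14 reads), and its other baited partners included Peg3 (151 kb, 11 reads, score 6.15) and Usp29 (390 kb, 9 reads, score 8.58), neighbouring imprinted genes. Usp29 was the other promoter most often met by mouse receptors, together with a SNORA17 copy on chromosome 4, each called from 5 receptor baits. Olfr1336, Olfr1344, Olfr1346 and Olfr1348 called Usp29 as well, with 7 to 10 reads, 457 to 521 kb away.

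In contrast, Olfr583 had 13 calls, all to receptor fragments, on both sides, from Olfr584 at 33.5 kb (10 reads, score 7.86) to Olfr643 at 1009 kb (4 reads, score 8.21), with the highest score for Olfr553 (437 kb, 7 reads, score 14.13). Olfr51, with 15 calls, and Olfr11, with 7, met no baited fragment at all. Olfr51 had 3 calls within 7 kb (123 to 236 reads) and 12 between 217 and 551 kb with 7 to 12 reads each. Olfr11 held the highest score of the receptor baits, 117.85 with 354 reads, for an unbaited fragment 10.7 kb away (chr13:21717529-21721751), and the adjoining fragment followed with 158 reads and a score of 52.43. The 2 fragments overlapped no annotated gene, and the best alignment between the first of them and the bait was 38 bp long.

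On chromosome 11 of the mouse, many receptors of a single cluster converged on its edge. The cluster at chr11:73159206-74180978 held 24 receptor baits with 122 calls, 50 of them to receptors. Of these baits, 10 called the unbaited fragment chr11:74189580-74195584 just beyond the last receptor fragment, namely Olfr139, Olfr20, Olfr23, Olfr381, Olfr385, Olfr389, Olfr392, Olfr399, Olfr402 and Olfr412, at 15.2 to 1031 kb with 5 to 64 reads and scores of 5.68 to 18.53. A nearby fragment, chr11:74180979-74185791, was also called from 10 receptor baits, at 103 to 1021 kb, and neither overlapped an annotated gene. In all, 19 and 18 baits of the list called these fragments, so the receptors were about as many as the other baits there. Olfr412, on the last receptor fragment of the cluster, had 15 calls, of which the strongest met a fragment with an exon of Rap1gap2 (24.1 kb, 153 reads, score 38.77) and 7 unbaited ones lay 1036 to 1135 kb away with 7 to 10 reads. Olfr399 had 14 calls, 13 to unbaited fragments at 231 to 778 kb.

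Vomeronasal baits had the fewest calls. The median was 1.5 (1 to 2) over the 30 Vmn1r baits and 1 (1 to 2) over the 8 Vmn2r baits. Receptor partners made up 12 of 59 Vmn1r calls (20.3%, 12 to 32.3) and 4 of 10 Vmn2r calls (40%, 16.8 to 68.7), against 46.8% (44 to 49.5) for Olfr. Vmn1r1 on chromosome 1 was the exception in number, with 10 calls at 103 to 383 kb, 9 of them unbaited and 1 to Degs1, a sphingolipid desaturase gene (125 kb, 15 reads, score 6.58). Vmn1r211 had 3 calls, all unbaited, at 235 to 553 kb, and Vmn2r17 had 2, with 60 reads at 4.32 kb and 5 reads at 570 kb. Vmn2r114 had a single call, with 63 reads and a score of 117.77 at 165 kb, to the Vmn2r117 fragment shown above. On chromosome 13, 6 Vmn1r baits (Vmn1r191, Vmn1r193, Vmn1r195, Vmn1r202, Vmn1r205 and Vmn1r211) called the same unbaited fragment, chr13:23494772-23501060, from 553 to 1226 kb with 4 to 7 reads each. It was called from 22 baits in all and overlapped no annotated gene.

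Class I and class II olfactory receptors were compared by their partners. Class I baits were those of the chromosome 7 cluster at chr7:109622746-112520052 in mouse and those with OR51, OR52, OR55 or OR56 symbols in human. In mESCs the 77 class I baits had 243 calls, of which 67.5% (61.4 to 73.1) met receptors, against 41.8% (38.8 to 44.9) of the 1012 calls of 361 class II baits. Mouse class I is a single cluster, so its interval does not cover the spread between clusters, and the chromosome 10 class II cluster, with 37 of 46 calls to receptors (80.4%), was above it. Their median distance was 186 kb against 194 kb, and their median number of calls was 2 in both. In GM12878 the shares were 42.6% (35.5 to 50) of 176 class I calls and 34.6% (31.1 to 38.3) of 662 class II calls, with overlapping intervals, and the class I calls spanned a longer median distance of 287 kb (267 to 316) against 214 kb (188 to 232). Class I pairs made up 151 of the 543 mouse olfactory receptor pairs and 70 of the 288 human pairs, and 2 human pairs joined a class I with a class II receptor.

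**Figure D4:**
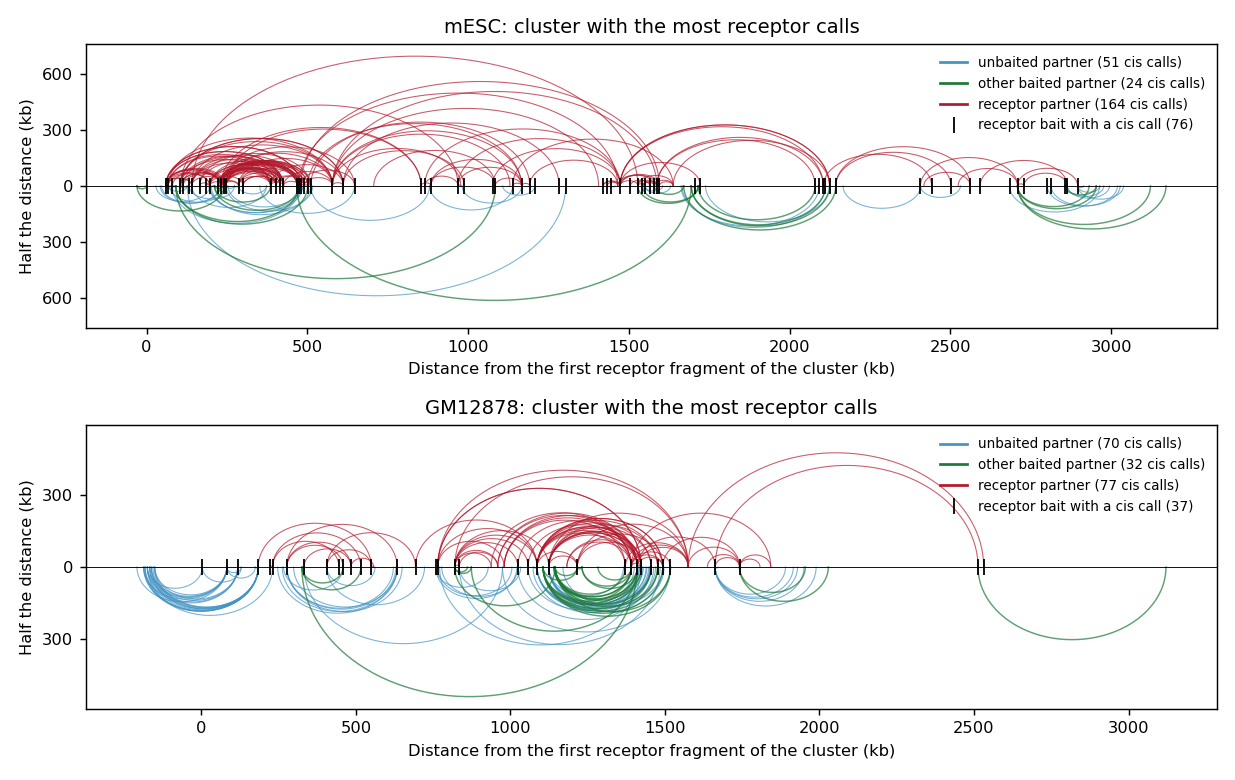
*Cis* calls of receptor baits in the cluster with the most receptor calls in each cell type, along the distance from its first receptor fragment (x axis, kb); arcs to receptor partners are drawn above the line and arcs to other partners below, and their height (y axis, kb) is proportional to the distance between the fragments. In mESCs 164 arcs join receptors against 75 to other partners, and in GM12878 77 join receptors against 102.

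The human class I cluster at chr11:4386043-6922330 (hg19) held 37 receptor baits with 179 calls, 77 of them to receptors. OR52N5 had 17 calls, all to baited fragments: 11 to receptors and 6 to other promoters. Its calls included the pseudogene OR51A10P (305 kb, 16 reads, score 26.07), which the symbol rule counts as another promoter, and OR52D1 (287 kb, 16 reads, score 25.42). OR52N4 on a nearby fragment had 16 calls, again without an unbaited one, and among them were OR52D1 (267 kb, 14 reads, score 17.59) and OR51A10P (286 kb, 13 reads, score 16.38). OR51A10P was met by 8 receptor baits (OR52B6, OR52E4, OR52E6, OR52E8, OR52N1, OR52N2, OR52N4 and OR52N5) with 11 to 22 reads at 111 to 412 kb. In the same cluster, 5 baits of OR52 genes (OR52K2, OR52B4, OR52I1, OR52K1 and OR52M1) called the unbaited fragment chr11:4206213-4216459 beyond its edge, which holds an exon of LINC02749 and was called from no other bait.

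Other human baits with many calls met mostly unbaited fragments. OR2T1 on chromosome 1 had 26 calls, the most of the human receptor baits: 1 to a receptor (OR14I1, 273 kb, 23 reads), 5 to other baited fragments and 20 unbaited. All lay at higher coordinates, 257 to 637 kb away, and the highest score was for the fragment of MIR3124 and SH3BP5L (553 kb, 27 reads, score 21.81). Its bait fragment, chr1:248568101-248573803, did not hold the annotated start of the gene, and neither did that of OR52N5. OR1G1 on chromosome 17 had 24 calls, all unbaited, at 6.66 to 375 kb with 10 to 84 reads, of which 16 were inside the span of its cluster, and OR5K4 on chromosome 3 had 15, of which 12 were unbaited and 3 met CLDND1 (169 kb, 40 reads, score 13.83), GPR15 and CPOX. On the same chromosome, OR5K1 called the CLDND1 fragment at 56.7 kb with 30 reads and a score of 34.54. Unbaited fragments were shared by several of these baits: chr1:249070162-249080592 was called from OR14I1, OR2T1, OR2T4, OR2T6 and OR2T8 at 231 to 990 kb, and chr17:3034204-3039791 from OR1D2, OR1E1, OR1G1 and OR3A1 at 6.66 to 262 kb. The chromosome 1 fragment was called from no other bait and overlapped no annotated gene. The chromosome 17 fragment was called from 6 baits in all and overlapped an exon of a long noncoding RNA. The highest human score, 53.66, belonged to OR4C5 for an unbaited fragment of 0.252 kb at 1651 kb (21 reads). The strongest receptor pair in GM12878 was OR1J1 with OR1K1 (319 kb, 20 reads), with a score of 30.64 from OR1J1 and 7.28 from OR1K1.

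The strongest mouse receptor pairs were close neighbours. Olfr206 called Olfr209 at 12.1 kb with 40 reads (score 38.71), Olfr356 called Olfr355 at 11.2 kb with 29 reads (score 24.76), and Olfr33 called Olfr558 at 9.82 kb with 40 reads (score 19.82). Olfr690 and Olfr691, at 7.52 kb with 75 reads, were called from both ends, with scores of 15.84 and 6.37, and Olfr1387 called Olfr1389 at 31.8 kb with 29 reads (score 15.82). In contrast, the human OR8K5 with OR8J3 (22.6 kb, 22 reads, score 24.96), OR56B4 with OR56A3 (166 kb, 16 reads, score 23.76) and OR6Q1 with OR9Q1 (6.94 kb, 58 reads, score 20.62) covered a wider range of distances. The OR8J3 fragment also carried the symbol OR5BN1P, that of OR56A3 the symbols AC025016.1 and TRIM5, and that of OR9Q1 the symbol RNU6-899P. These calls cannot be assigned to the receptor alone. An alignment of some kind between the fragments was found for 429 of the 560 mESC and 229 of the 288 GM12878 receptor pairs, with median identities of 73.8% and 76.5%. At a stricter level, at least 100 bp at 95% identity, only 2 mESC and 2 GM12878 receptor pairs shared sequence, so near-identical fragments made up 0.357% and 0.694% of the pairs.

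Clusters differed widely in these values. There were 58 clusters in mESCs, 20 of them of a single receptor fragment, and 28 in GM12878, 6 of them single. Among the 28 mESC clusters with at least 10 calls, the share of calls to receptors ran from 0% to 80.4% (median 48.1%) and the calls per bait from 1.27 to 10.9 (median 2.68). Those at 0% were Vmn1r1 and Olfr371, each a single receptor fragment, which has no receptor partner within its cluster by construction. The lowest share in a cluster of several fragments was 4.35%, on chromosome 4. The share was highest for the chromosome 10 cluster at chr10:128530545-129649257, where 37 of 46 calls of 23 baits met receptors, and the calls per bait were highest for the 8 baits around Olfr1350. The chromosome 19 cluster (chr19:11902590-13937514), with 49 of 101 calls to receptors and Olfr1441 as its top bait (12 calls), came next after the chromosome 7 and chromosome 11 clusters in receptor calls. In GM12878 the 16 such clusters ran from 0% to 70.4% (median 30.6%), and the share was highest for the chromosome 11 cluster at chr11:55106340-56511352, with 50 of 71 calls and OR5T2 as its top bait (13 calls). The chromosome 1 cluster of OR2T1 (chr1:247607429-248845832) had 46 of 115. The cluster with the most calls to receptors held 27.2% of such calls in mESCs and 25.3% in GM12878, and without it the share of calls that ended on receptors was 40.6% in mESCs and 34.4% in GM12878.

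**Figure D5:**
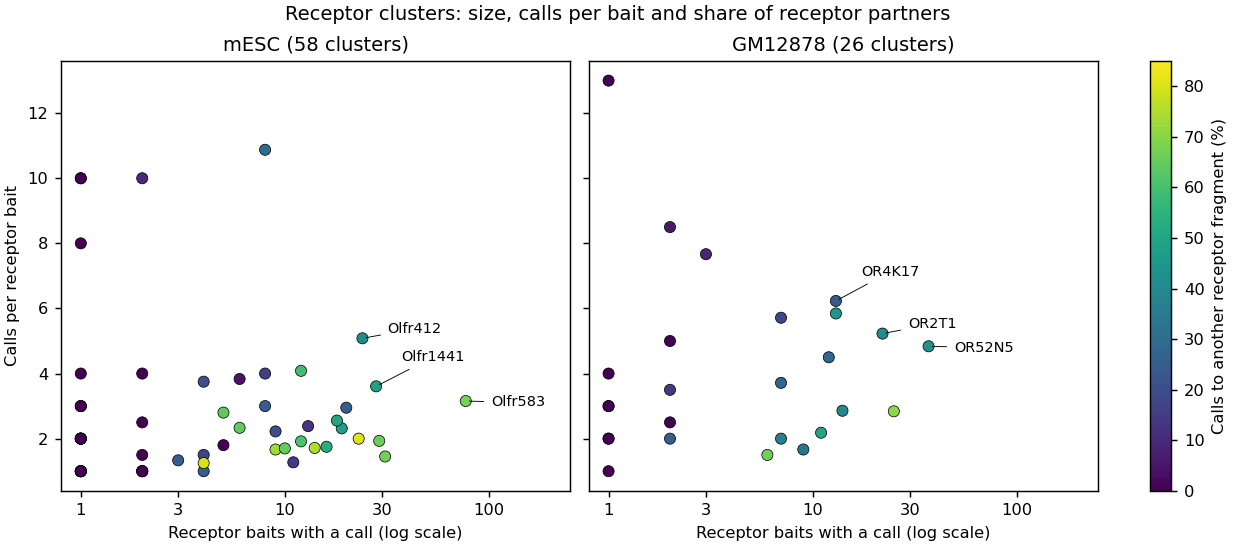
Receptor clusters with a call as bait, by number of receptor baits (x axis, log scale) and calls per receptor bait (y axis), coloured by the share of calls that end on another receptor fragment (%); the 3 clusters with the most calls are labelled by their top bait. Clusters of a single receptor fragment have no receptor partner within the cluster by construction, and the high values of calls per bait, up to 10.9 in mESC clusters with several baits, lie among small clusters.

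Contacts with other genes of chemosensation were few in number. As background for the counts of genes with a call, 71.3% of other mouse protein-coding genes and 67% of human ones had a start on a fragment listed as bait. Among 60 annotated mouse genes for trace amine, formyl peptide and taste receptors, 28 had a call as bait, with a median of 1 call, and receptor baits contacted 1 gene of the list, Fpr-rs3, which had no call as bait, from Vmn1r226 (62 kb, 11 reads, score 5.19) and Vmn1r230 (222 kb, 4 reads, score 5.92). As baits, the mouse genes had 1 of 47 calls end on a receptor fragment, and the human ones 2 of 52, against 0.188% and 0.108% of the calls of all baits that are not receptors. For the other baits within 500 kb of a receptor cluster, the shares were 2.37% in mESCs and 2.72% in GM12878. With 1 and 2 calls, and a gene list not limited to such baits, a difference from these shares can be neither shown nor excluded. In GM12878, 21 of 42 had a call, and 6 calls of receptor baits ended on bitter taste receptor genes of chromosome 7, all of them neighbours: 4 on TAS2R60, from OR9A2, OR2F2, OR2F1 and OR2A12 (416 to 650 kb, 5 to 11 reads), 1 on TAS2R38 from OR9A4 (53.8 kb, 19 reads) and 1 on TAS2R39 from OR9A2 (157 kb, 13 reads). Of 27 genes of olfactory signal transduction and receptor choice, 19 were baits with a call in mESCs and 14 in GM12878, beside the background of 71.3% and 67% above. In mESCs only Cnga4, a subunit of the olfactory cyclic nucleotide-gated channel, was contacted, by Olfr685 (223 kb, 7 reads, score 11.11). Lhx2, a homeodomain factor of olfactory neurons, had 20 mESC calls, Adcy3, the adenylyl cyclase of odour transduction, and Ebf3, an Olf1/EBF factor, had 10 each, and 0 of the 93 calls of the pathway genes ended on a receptor fragment in mESCs, where the share of 0.188% over other baits gives less than 1 call. The human CNGB1 and REEP1 baits had 14 and 23 calls, and 1 of the 74 calls of the pathway genes in GM12878, from CNGA4, ended on a receptor, against 0.108% over other baits.

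Receptor calls coincided with interacting Hi-C bin pairs less often than other calls. In mESCs, 46 of 1324 receptor calls (3.47%, 2.61 to 4.6) lay within a bin pair that the Hi-C library gave as interacting at an FDR under 0.05, in 25-kb bins up to 1 Mb and 1-Mb bins beyond, against a background of 13.4%. The share was lower within each class of distance: 3.23% against 12.4% below 50 kb, 2.33% against 11.4% at 100 to 200 kb, 4.01% against 7.37% at 200 to 400 kb and 31% (17.3 to 49.2, 29 calls) against 59.6% over 1 Mb. Calls between 2 receptors were within such a pair in 7 of 603 cases (1.16%, 0.563 to 2.38), and calls of receptors to unbaited fragments in 28 of 499 (5.61%, 3.91 to 7.99). Other baits' calls to baited fragments that are not receptors were at 11.2%. By family, the shares were 2.95% for Olfr and 13.6% (7.03 to 24.5, 59 calls) for Vmn1r, and class I calls were at 0.412% (0.0727 to 2.29) against 3.56% for class II. Hi-C depth per bin was not compared here, and its part in the lower share was not tested.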

How the data were processed

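The authors mapped read pairs with HiCUP (the submitters' processing notes give Bowtie 1.1.0) to mm9 or hg19, and called contacts with CHiCAGO on all replicates together. The deposited read count of a call was weighted over the replicates and rounded, treated here as a score, and the second deposited value is the authors' CHiCAGO score, listed from 5 upward. For Hi-C, the authors deposited HOMER (4.7) calls with the count of read pairs per bin pair, the expected count and an FDR, a p-value adjusted by Benjamini-Hochberg. A further 10 columns of Hi-C values were not used. The total of captured reads per sample was not analysed here, so precision follows from the numbers of calls.

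Receptor baits were found by symbol. Distances were taken between midpoints, and the 52640 mouse and 56775 human fragments listed were all found in a HindIII digest of each genome. Clusters joined receptor fragments with gaps of at most 1 Mb. Fragments were aligned with blastn 2.17.0 (E-value 1e-05). Analyses used Python 3.11.15, pandas 2.3.3, scipy 1.17.1 and pysam 0.24.0, with GENCODE annotation of the same builds, and the counting steps were tested on simulated data. Named genes were, per cell type, the 5 receptor baits with most calls and 3 per mouse family, the 5 *cis* and 3 *trans* calls and 5 receptor pairs of highest score, the 3 longest *cis* calls, the 3 clusters with most receptor calls, and the most shared unbaited fragments. The members, lists and this rule were chosen with earlier results of these data known, and Olfr11, Vmn1r191 with its neighbours and the most met other promoters were described after their values were seen. Alternatives were a score or read count of at least 10, each pair once, the browser list of the authors, baits with receptor symbols only, pseudogene symbols added, the largest cluster left out, aligned pairs left out, gaps of 500 kb and an FDR under 0.01. Some calls that the rule names are not reported here.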

Additional observations from a re-analysis of the deposited data

How the results depend on the processing

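Of 160 values recomputed under the alternatives, 119 stayed within the interval of the value reported, 31 left it and 10 crossed the value of other baits. With a score of at least 10, the median was 1 call per receptor bait and per other bait in both cell types, and 72.3% of mESC and 60.6% of GM12878 receptor baits had 1 call, the latter now above other baits (50.4%). The bait-to-bait share was 72.4% and the receptor share 48% in GM12878, *trans* calls were 3.39% in mESCs, and calls over 1 Mb 3.97% in GM12878. Median distances were 108 kb in mESCs, now below other baits (109.5 kb), and 189 kb in GM12878. Median reads were 15 and 16, median scores 12.24 and 12.01, and the Hi-C share 6.78%.

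With a read count of at least 10, the median was 1 call in mESCs against 3, and 53.5% of mESC and 35.1% of GM12878 receptor baits had 1 call, against 29.4% of other GM12878 baits. Bait-to-bait shares were 56.7% and 45.5%, and receptor shares 41.4% and 30.4%. *Trans* calls were 0% in both, which in mESCs was below other baits (0.104%). Median distances were 59.5 kb in mESCs, below other baits (90.2 kb), and 177 kb in GM12878. Calls over 1 Mb were 0.189% and 0.18%, the latter below other baits (0.538%). Median reads were 15 and 15, median scores 6.82 and 6.79, and the Hi-C share 4.73%.

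Without the cluster with the most receptor calls, the mESC bait-to-bait share was 58.9%, the receptor share 40.6% and *trans* calls 0.555%, now below other baits (0.566%). In GM12878, 27.1% of receptor baits had 1 call, above other baits, and the median distance was 212 kb. With each pair once, and in the browser list, 25.6% of GM12878 receptor baits had 1 call against 25.5%. Among GM12878 baits with receptor symbols only, the receptor share was 30.4%. The cause of these shifts was not tested. The order relative to other baits therefore depended on the setting for the mESC median distance and *trans* share and for the GM12878 share with 1 call and share over 1 Mb.

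No paired analysis was possible because the calls were pooled over replicates. Scores and reads limit what is seen: a receptor call had a median of 8 or 12 reads, and promoters without a call do not appear in the lists.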
